A study of Caenorhabditis elegans with 2 samples.

Results

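The microRNA (miRNA) genes of the nematode Caenorhabditis elegans were examined for binding of the tagged transcription factor MXL-1. They are all 261 nuclear genes annotated as miRNA, of 46890 annotated nuclear genes. The rule that picked them uses no measured value, though it was set with earlier results of these data known. Each gene was read in a window from 1000 bp upstream of its start to 250 bp downstream of its end. Together the windows cover 0.308% of the nuclear genome.

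Both samples were whole hermaphrodite young adults of strain OP537, taken 67 hours after starved L1 larvae had been synchronised. The strain carries the mutation unc-119(tm4063) and the transgene wgIs537, from which MXL-1 is made with GFP and FLAG joined to its C terminus. The labels used here do not name the promoter of the transgene. Chromatin was pulled down by an antibody to GFP for sequencing (ChIP-seq) in 2 biological replicates of 1 group, with no second condition to compare. The deposited lists give each peak a position, a summit, which is its highest point, and a signal whose scale is not stated. Of these, 557 peaks made up the thresholded list, which keeps the top of the 14200 peaks called on pooled data, and the replicate lists held 20313 and 21882. The pooled and replicate lists are labelled as peaks and background, so their weaker entries need not be binding sites.

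miRNAs are short RNAs cut from hairpin transcripts and loaded into an Argonaute protein, where they lower the output of messenger RNAs that pair with them. Bases 2 to 8 of the mature miRNA, the seed, do most of the pairing, and miRNAs with the same seed form a family with overlapping targets. In worms lin-4 and let-7 time the larval stages, and the mir-35 and mir-51 families are needed in the embryo. Most miRNA genes are transcribed by RNA polymerase II from a promoter of their own or of a host gene. MXL-1 is a worm counterpart of Max, a basic helix-loop-helix leucine zipper protein. With its partner MDL-1 it binds the E-box CACGTG.

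Of the 261 miRNA genes, 6 (2.30%) had a thresholded summit in their window, against 0.976% of the 19973 protein-coding genes, read from 1000 bp upstream to 350 bp downstream of their start. Of these 6 genes, 5 were members of the mir-51 family, which has 6 genes in all, and they rest on 4 peaks at 3 loci. They were mir-51, mir-52 and the neighbours mir-54, mir-55 and mir-56, which share 1 peak, and the sixth gene was mir-4936. For the 6 genes of the family, mir-53 included, and for mir-4936, 1 mature arm each is given here because most of the thresholded genes shared a seed. For each family gene it is the arm with the shared seed, and the other arm has a different seed. The sequences were read from the RefSeq annotation of WBcel235, and capitals mark the seed.
mir-51: uACCCGUAgcuccuauccauguu
mir-52: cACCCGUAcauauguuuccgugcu
mir-53: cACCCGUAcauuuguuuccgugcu
mir-54: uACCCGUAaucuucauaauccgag
mir-55: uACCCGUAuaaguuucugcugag
mir-56: uACCCGUAauguuuccgcugag
mir-4936: uGCUUUGUggcuuugcuggua

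The letters from position 100 bp before to 100 bp after each thresholded summit are shown because their motifs are counted further on. They are ce11 sequence on the strand of the miRNA gene. Capitals mark every E-box of the general form CANNTG, of which CACGTG is a special case, and every match on the strand shown to GGTTCGANNCC. That second pattern is the consensus of box B, an element inside tRNA genes that recruits RNA polymerase III. The windows of the summits at mir-51 (chrIV:11026057-11026257, minus strand), mir-4936 (chrIII:3249110-3249310, plus strand), mir-52 (chrIV:14033741-14033941 and chrIV:14033995-14034195, plus strand) and mir-54 to mir-56 (chrX:13145261-13145461, minus strand) follow.
mir-51 summit: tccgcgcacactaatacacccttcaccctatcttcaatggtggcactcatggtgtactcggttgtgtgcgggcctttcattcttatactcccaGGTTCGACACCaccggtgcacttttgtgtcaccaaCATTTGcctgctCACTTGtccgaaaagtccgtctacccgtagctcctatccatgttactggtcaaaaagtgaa
mir-4936 summit: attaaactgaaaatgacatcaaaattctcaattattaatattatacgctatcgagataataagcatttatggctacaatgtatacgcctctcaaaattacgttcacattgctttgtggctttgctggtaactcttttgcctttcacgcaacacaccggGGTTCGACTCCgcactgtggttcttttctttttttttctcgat
mir-52 upstream summit: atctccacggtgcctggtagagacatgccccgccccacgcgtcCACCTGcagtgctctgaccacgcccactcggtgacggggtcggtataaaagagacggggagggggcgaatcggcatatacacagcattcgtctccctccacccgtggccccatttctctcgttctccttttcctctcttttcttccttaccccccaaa
mir-52 summit in the gene: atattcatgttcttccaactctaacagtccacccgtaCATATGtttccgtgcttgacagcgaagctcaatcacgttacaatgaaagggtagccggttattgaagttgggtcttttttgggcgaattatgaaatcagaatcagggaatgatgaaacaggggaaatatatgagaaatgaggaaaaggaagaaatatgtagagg
mir-54 to mir-56 summit: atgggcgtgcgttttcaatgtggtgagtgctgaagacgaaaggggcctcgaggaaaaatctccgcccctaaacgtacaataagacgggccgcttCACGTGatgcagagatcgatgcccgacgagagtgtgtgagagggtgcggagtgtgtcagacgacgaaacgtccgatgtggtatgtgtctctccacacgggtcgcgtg

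The strongest of these peaks lay at mir-51. mir-51 is annotated at chrIV:11026013-11026112 on the minus strand, outside any protein-coding gene, and the summit stood 45 bp upstream of its start. The peak signal was 193.8 in the pooled list, 100.5 in replicate 1 and 101.1 in replicate 2. Its rank was 28 among all pooled peaks, 19 in replicate 1 and 25 in replicate 2, so the peak was near the top of every list. Among the 208 thresholded nuclear summits that lie more than 250 bp from any tRNA, snoRNA, snRNA or rRNA gene (called small RNA genes here), it was number 2. The nearest protein-coding start, that of hrg-5, was 3271 bp away, and F36H1.17, a gene of the class ncRNA (unclassified non-coding RNA), lay within 250 bp of the summit.

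mir-53 lies next upstream on the same strand (chrIV:11027593-11027691) and was the only member of the family without a thresholded or pooled summit. The mir-51 summit fell 1534 bp beyond the mir-53 start, outside its window. Replicate 2 alone listed a peak in the mir-53 window, with a signal of 27.3 at 339 bp past the start and rank 1679.

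mir-4936 (chrIII:3249151-3249260, plus strand) had the second strongest peak, with its summit 59 bp past the start, within the 110 bp hairpin gene. Its signal was 141.6 in the pooled list (rank 67), 58.0 in replicate 1 (rank 139) and 85.2 in replicate 2 (rank 44). Replicate 2 was the higher of the replicates, and both ranks were within the strongest 557. This summit lay 635 bp upstream of the start of nduf-9, a gene for a subunit of mitochondrial complex I, and so also in that gene's promoter window.

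At mir-52 (chrIV:14034008-14034107, plus strand) there were 2 thresholded summits, 1 at 167 bp upstream of the start and 1 at 87 bp past it, inside the gene. For the upstream summit the signal was 79.6 pooled, 21.5 in replicate 1 and 59.7 in replicate 2. For the summit in the gene it was 83.1 pooled, 26.8 in replicate 1 and 52.7 in replicate 2. Both summits stood far higher in replicate 2 (ranks 141 and 213) than in replicate 1 (ranks 3750 and 1548). The window also held 2 weaker pooled summits further upstream, of 26.1 and 25.8, which went the other way. They matched replicate 1 peaks of 31.7 (rank 823) and 28.8 (rank 1149) and no replicate 2 peak within 100 bp. The strongest peak in the window thus lay at different positions in the replicates. No protein-coding start was within 9685 bp of either thresholded summit, while 3 ncRNA genes lay within 250 bp.

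mir-54, mir-55 and mir-56 are transcribed from the minus strand of chromosome X (chrX:13144691-13145094) and shared 1 thresholded summit at position 13145361. It was 267 bp upstream of mir-54, 437 bp upstream of mir-55 and 574 bp upstream of mir-56. The signal was 69.6 pooled (rank 516), 38.3 in replicate 1 (rank 461) and 31.3 in replicate 2 (rank 1008), with replicate 1 the higher. The weakest peak of the thresholded list had 67.7. All 3 genes and the summit lie inside the protein-coding gene F09A5.3, which runs on the opposite strand, and the ncRNA gene F09A5.11 is within 250 bp of the summit. The gene F09A5.15, annotated as a miRNA on the strand opposite mir-55, had this summit outside its window, and its strongest pooled signal was 39.9.

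**Figure D1:**
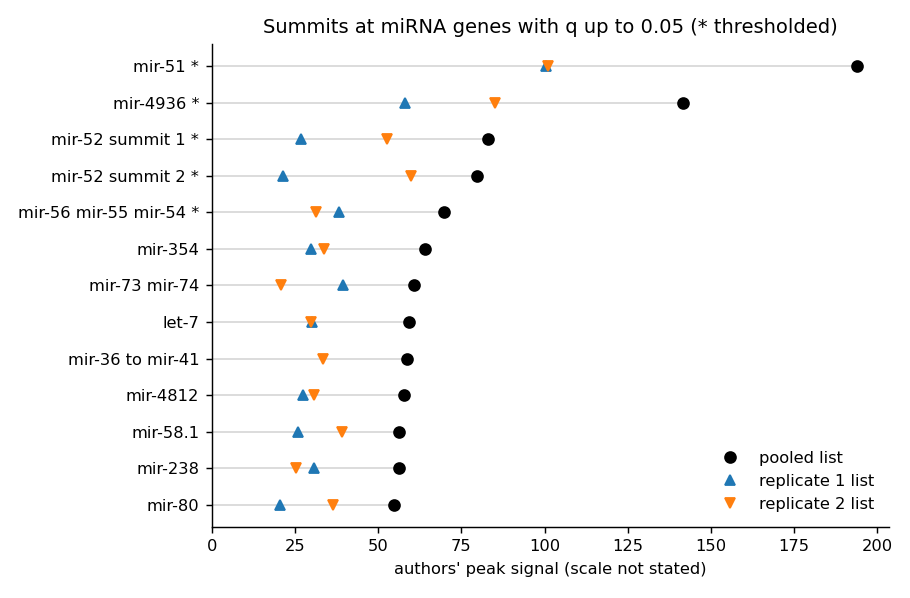
The authors' peak signal (x axis, scale not stated) of the 13 strongest summits at miRNA genes, with the pooled value as a circle and the replicate values as triangles; asterisks mark thresholded peaks. The mir-51 peak has nearly the same signal in both replicates (100.5 and 101.1), both mir-52 summits are higher in replicate 2, and the peak shared by mir-36 to mir-41 has no replicate 1 peak within 100 bp.

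Only mir-51 and mir-4936 were among the strongest 557 peaks of both replicate lists. Taking the strongest 557 peaks of replicate 2 alone gave 4 miRNA genes (mir-51, mir-4936, mir-52 and mir-58.1). The same number from replicate 1 alone gave 7 genes, namely mir-51, mir-4936, mir-54, mir-55, mir-56, mir-73 and mir-74. Thus mir-52 rested on replicate 2 and the mir-54 to mir-56 peak on replicate 1 for a place at that rank, although both had a peak within 100 bp in the other list.

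Counted over the 261 genes, the thresholded share was 2.30% (exact Clopper-Pearson 95% interval 0.848 to 4.94), and this interval holds the 0.976% of protein-coding genes. After summits near small RNA genes were left out, the miRNA count stayed at 6 genes and the protein-coding share was 0.526%, which lies below the interval. Neighbouring miRNA genes share peaks and are not independent, so the intervals are too narrow; grouped into loci with gaps up to 1000 bp, 4 of 227 loci (1.76%) had a thresholded summit. By summits, 5 of the 550 nuclear thresholded ones (0.909%, 0.296 to 2.11) lay in miRNA windows. No test was made of these differences.

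In the pooled list, 73 miRNA genes (27.97%, 22.6 to 33.8) at 59 loci had at least 1 summit, from 71 peaks. The background was 22.2% of protein-coding genes, and 21.4% away from small RNA genes, where the miRNA count was again 73. The miRNA interval starts just above both values, and the share of loci was 25.99%. The median signal of the peaks at miRNA genes was 31.5 in the pooled list, against 31.7 over that whole list. It was 17.6 against 16.4 in replicate 1, 17.2 against 16.6 in replicate 2, and 83.1 against 90.3 in the thresholded list. Of the other classes, tRNA genes had a thresholded summit in 52.3% of cases, snoRNA genes in 19.4%, snRNA genes in 9.30% and ncRNA genes in 4.29%. All these shares were above that of miRNA genes, though the ncRNA share was 0.863% away from small RNA genes. Long intergenic non-coding RNA genes, at 1.03%, and piRNA genes, which encode the short guide RNAs of the germ line, at 0.365%, were below the miRNA share.

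**Figure D2:**
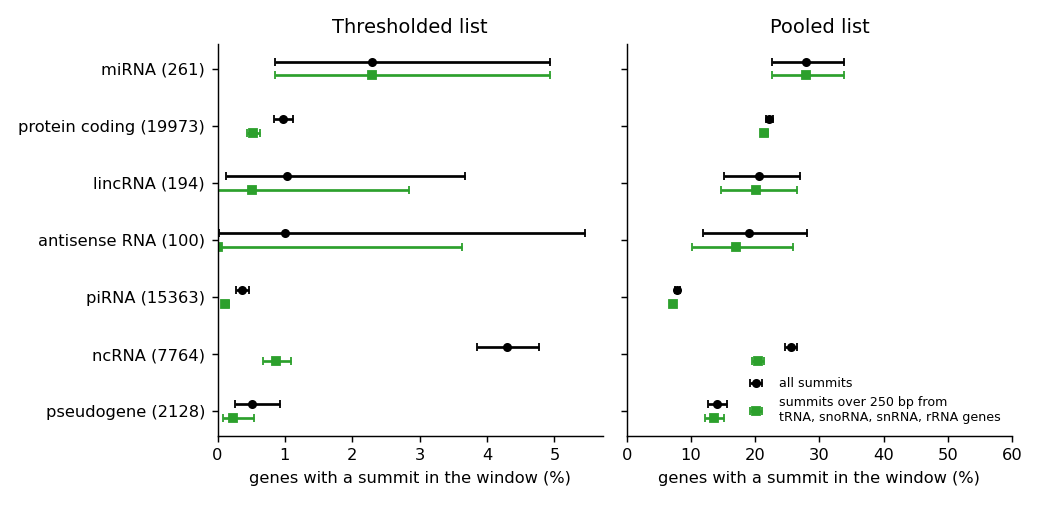
Share of genes with a summit in the window, by annotated gene class (number of genes in brackets), for the thresholded (left) and pooled (right) lists; bars are exact 95% intervals, which cover counting only. Leaving out summits within 250 bp of a small RNA gene moves the ncRNA and protein-coding shares in the thresholded list and leaves the miRNA share at 2.30%; the tRNA, snoRNA, snRNA and rRNA classes are not drawn.

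In replicate 1, 88 of the miRNA genes (33.7%) had a summit in the window, and in replicate 2 there were 108 (41.4%), a mean of 37.5% ± 5.42 (SD, n = 2). With as many of the strongest peaks taken from each replicate as the pooled list holds, the mean was 27.2% ± 3.25 (SD, n = 2). A summit in both replicate lists was found for 54 miRNA genes (20.7%, 15.9 to 26.1), against 14.8% of protein-coding genes. For 30 of the 54 the replicate summits were within 100 bp of each other. Another 34 genes had a summit in replicate 1 only, 54 in replicate 2 only, and 119 in neither. There were 118 miRNA genes with no summit in any list. Of the 71 pooled peaks, 24 (33.8%, 22.997 to 46.0) had a match in both replicates, close to the 31.0% of all nuclear pooled peaks, while 19 matched in replicate 1 only, 23 in replicate 2 only and 5 in neither.

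The authors' q value was at most 0.05 for 1039 pooled peaks. These included 13 peaks at 20 miRNA genes in 12 loci, and the 20 genes are also those with the strongest pooled summits. No share of protein-coding genes was taken at this cutoff, so the count of 20 is a description only. Below the thresholded peaks came mir-354, an intronic miRNA of the ribosomal protein gene rps-20, at a pooled signal of 64.1 (29.9 in replicate 1 and 33.8 in replicate 2). Its summit was 252 bp past the mir-354 start, beyond the end of the 110 bp gene and not inside any protein-coding gene. It stood 25 bp upstream of the start of the protein-coding gene Y105E8A.14, inside that gene's promoter window. The pair mir-73 and mir-74 shared a summit at 294 and 572 bp upstream, with 60.7 pooled, 39.4 in replicate 1 and 20.8 in replicate 2. Here replicate 1 (rank 423) was well above replicate 2 (rank 4908).

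let-7, which times the change from larval to adult cell fates, is annotated as a primary transcript of 1732 bp (chrX:14743590-14745321, minus strand). Its strongest summit, at position 14744547, was 774 bp past the start of that transcript. On the minus strand this lies upstream of the mature let-7 sequence, which is at chrX:14744234-14744255. The signal was 59.3 pooled (rank 795, q = 0.0157), 30.1 in replicate 1 and 29.7 in replicate 2, nearly equal between replicates. The summit was also 767 bp upstream of the protein-coding gene C05G5.7. Of the other 4 genes with the let-7 seed, mir-48 had a pooled summit of 31.6, and mir-241, mir-84 and mir-795 had none.

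The mir-35 family, 8 genes that act in oogenesis and the embryo, had pooled summits at 7 genes and thresholded summits at 0. Over all miRNA genes the shares were 27.97% and 2.30%. A peak of 58.7 (rank 814) lay within the cluster on chromosome II and fell in the windows of mir-36, mir-37, mir-38, mir-39, mir-40 and mir-41. Replicate 2 had a matching peak of 33.4, and replicate 1 had none within 100 bp, although it listed a peak of 22.8 (rank 2967) just beyond that distance. Counted by window, 6 genes of the family had a summit in both replicates. mir-35, the first gene of the cluster, had no pooled summit, and mir-42, in another cluster, had one of 27.5. The gene counts of this family therefore rest mainly on 1 peak.

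The mir-58 family, counted by bases 2 to 7 (GAGAUC), is the worm counterpart of fly bantam and includes some of the most abundant worm miRNAs. Of its 7 genes, 3 had a pooled summit and 0 a thresholded one, against 27.97% and 2.30% of all miRNA genes. By bases 2 to 8, mir-58.1 stands apart from mir-80, as their letters show.
mir-58.1: uGAGAUCGuucaguacggcaau
mir-80: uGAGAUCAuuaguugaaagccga
mir-58.1 had a summit 206 bp upstream, of 56.3 pooled, 25.9 in replicate 1 and 39.0 in replicate 2. mir-80, which acts in the response to food, had a summit 225 bp upstream, of 54.8 pooled, 20.6 in replicate 1 and 36.4 in replicate 2. Both were higher in replicate 2, where their ranks were 488 and 621. Near mir-80 lies mir-238, whose summit was 297 bp past its start, with 56.2 pooled, 30.8 in replicate 1 and 25.2 in replicate 2. Also among the 20 genes with the strongest pooled summits, mir-4812 inside the phosphoinositide kinase gene piki-1 had 57.7 pooled, 27.4 in replicate 1 and 30.6 in replicate 2, at 85 bp upstream.

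lin-4, the first miRNA found in any animal, had a pooled summit of 38.4 (rank 3458, q = 0.479) at 327 bp upstream, with 26.5 in replicate 2 and no match in replicate 1. Its family partner mir-237 had none. For lsy-6, which sets the left-right asymmetry of taste neurons, mir-1, a muscle miRNA, and mir-71, which extends life span, no list had a summit in the window. A thresholded summit did lie 1360 bp upstream of mir-71, beyond the window, with a signal of 103.3 pooled, 46.6 in replicate 1 and 61.5 in replicate 2. mir-71 itself lies inside the protein-coding gene ppfr-1, on the same strand. The nearest protein-coding start, that of ppfr-1, was 8602 bp from the summit. That summit has a CACGTG within 100 bp and is more than 250 bp from any small RNA gene. The mir-2 family had a pooled summit at 2 of its 4 genes, against 27.97% of all miRNA genes, with a signal of at most 28.0.

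**Figure D3:**
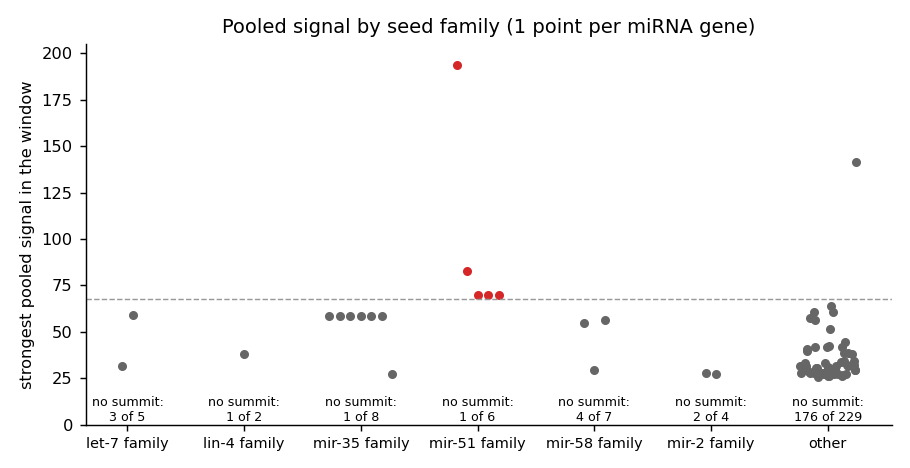
Strongest pooled signal in the window for each miRNA gene, by seed family; genes without a pooled summit are counted below the points, and the dashed line is the weakest thresholded signal, 67.7. The 5 members of the mir-51 family with a summit are all above the line, as is mir-4936 among the genes of no listed family, and no gene of the other 5 families is.

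Outside these families, 53 of 229 genes (23.1%) had a pooled summit, against 22.2% of protein-coding genes, and 1, mir-4936, a thresholded one. The pooled share varied with the gene's setting. It was 40.5% for the 74 miRNA genes inside a protein-coding gene on the same strand, 43.75% for the 32 on the opposite strand and 18.7% for the 155 outside protein-coding genes. By chromosome it was highest on II (40.8%) and III (37.0%), 30.3% on I, 25% on V, 22% on IV and lowest on X (20.3%). Of genes with other miRNA genes in their locus 40.4% had a pooled summit, and of genes alone in their locus 24.9%. These subsets overlap, clusters count a shared peak many times, and no test was made.

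The strongest pooled summit was upstream of the start at 55 of the 73 genes, inside the gene at 7 and downstream at 11, with a median of 267 bp upstream (quartiles 595 and 1 bp upstream). The window holds far more upstream than downstream bases. In bins of equal width, a summit was counted for each gene it fell near, so that peaks shared by a cluster count several times. The highest pooled value was 5.75 gene-summit pairs per 100 miRNA genes in the bin around the start, from 100 bp upstream to 50 bp downstream, against 3.44 per 100 protein-coding genes. In both replicate lists the highest bin was 1 further upstream, from 250 to 100 bp, with 7.28 in replicate 1 and 7.66 in replicate 2, against 4.11 and 4.6 at protein-coding genes. The bins hold at most 20 such pairs at miRNA genes each.

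**Figure D4:**
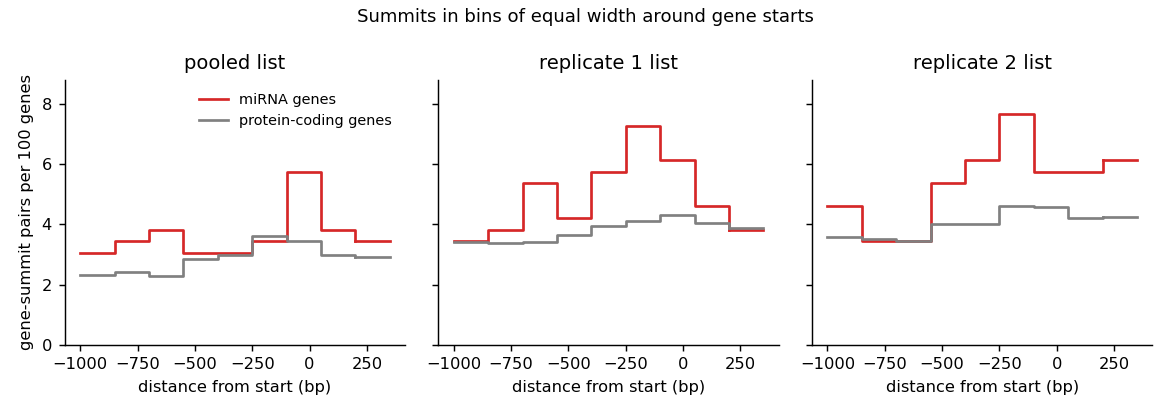
Gene-summit pairs per 100 genes in bins around the start of miRNA genes (red) and protein-coding genes (grey), for the pooled list and each replicate list; negative distances are upstream. The miRNA line peaks at 5.75 at the start in the pooled list and at 7.28 and 7.66 just upstream of it in the replicates.

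**Figure D5:**
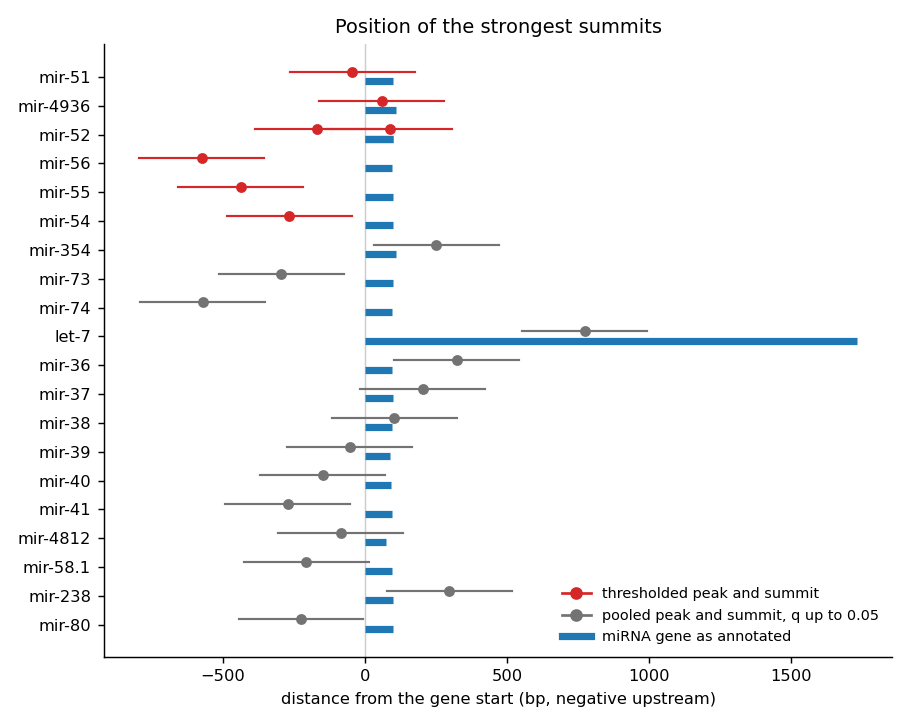
Peaks (horizontal lines), summits (points) and annotated genes (blue bars) for the 20 miRNA genes with the strongest pooled summits, aligned on the gene start; red marks thresholded peaks and grey the other pooled peaks. Thresholded summits lie from 574 bp upstream (mir-56) to 87 bp downstream (mir-52), and genes of a cluster share a peak at different distances.

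Of the 71 pooled peaks at miRNA genes, 41 had their summit inside a protein-coding gene. In a protein-coding promoter window there were 17 (23.9%, 14.6 to 35.5), against 30.8% of all nuclear pooled summits. For 20 of the 71, a gene of the class ncRNA lay within 250 bp of the summit. With such overlaps, a peak cannot be assigned to the miRNA gene rather than to its neighbour from position alone. No share over all nuclear pooled summits was taken for the counts of 41 and 20, so they describe these peaks only.

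The E-box CACGTG was found within 100 bp of 1 of the 5 thresholded summits at miRNA genes (95% interval 0.505% to 71.6%), against 6.18% of all nuclear thresholded summits and 12.02% of those away from small RNA genes. It is the one at mir-54, mir-55 and mir-56, and in the sequence shown its letters begin 6 bp before the summit on the strand of the genes. At pooled peaks it was present for 4 of 71 (5.63%, 1.56 to 13.8), against a background of 5.04%. The same shares were 5.63% against 2.64% within 50 bp and 16.9% (9.05 to 27.7) against 10.6% within 250 bp. The other 3 were weak peaks, with signals of 31.9 at mir-357 and mir-358, 28.1 at mir-353 and 27.6 at mir-5592.2. Any E-box CANNTG was within 100 bp of 4 of the 5 thresholded miRNA summits, and of 56.7% of all nuclear thresholded summits.

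Seen from the sequence, 64 of the 261 windows held at least 1 CACGTG. Over the same distances from the start the share was 24.1% of miRNA genes and 20.4% of protein-coding genes. Of the 78 distinct CACGTG sites in miRNA windows, 5 had a pooled summit within 100 bp. The same share was not taken for sites elsewhere, so this count is a description only. A pooled summit was present at 31.25% of the genes with the motif and at 26.9% of those without.

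Both of the strongest summits, at mir-51 and mir-4936, had a match to the box B consensus GGTTCGANNCC within 100 bp, and the other 3 thresholded miRNA summits had none. The search was chosen after the sequences had been read, so these 2 matches are a description. At mir-51 the match reads GGTTCGACACC, runs on the strand of the gene and starts 52 bp upstream of it, which places it at the summit. At mir-4936 it reads GGTTCGACTCC, on the strand of the gene, and starts 117 bp past the gene's start, beyond the annotated hairpin. On either strand, the consensus was within 100 bp of 165 of 269 thresholded summits close to a tRNA gene (61.3%), of 6.25% of the 208 away from small RNA genes and of 0.885% of pooled summits away from them. Over all nuclear thresholded summits the share was 33.5%, beside 2 of the 5 at miRNA genes. In the pooled list it was 2.84% of all nuclear summits and 2.82% of those at miRNA genes, nearly the same. The nearest annotated tRNA gene was 205453 bp from mir-51 and 53631 bp from mir-4936. Over the windows, 8 of 261 miRNA genes (3.07%) and 1.32% of protein-coding genes held the consensus, and of those 8 only mir-51, mir-4936 and, with a pooled signal of 42.5 and no match within 100 bp of its summit, mir-4937 had a pooled peak. Of the other 5, mir-1829.3, mir-1819 and mir-8207 lie 166, 228 and 857 bp from an annotated tRNA gene.

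A set of 31 genes of the miRNA pathway was examined in the same lists, made up of genes for proteins that make, use or degrade miRNAs, 7 regulators and 5 classical targets. Thresholded summits were present at 1 of the 31, against 0.976% of all protein-coding genes. It was nhl-2, which encodes a TRIM-NHL protein that strengthens repression by miRNAs. Its summit was 793 bp upstream of the start, with 98.0 pooled (rank 225), 63.2 in replicate 1 and 35.3 in replicate 2, the higher value being in replicate 1. A pooled summit was present at 13 of the 31 (41.9%, against the 22.2% of protein-coding genes given above), and 8 had a summit in both replicates, against 14.8% of protein-coding genes.

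By role, none of the 3 processing genes, drsh-1, pash-1 and dcr-1, which cut the precursors, had a pooled summit. Among Argonautes and their GW182 partners 3 of 5 did, with 42.1 at alg-2 and 42.0 at ain-1, and alg-1 had none. The alg-2 summit had 21.2 in replicate 1 and 16.7 in replicate 2. The ain-1 summit had 24.6 in replicate 1 and no match in replicate 2. Of the effectors, the helicase gene cgh-1 reached 66.4 pooled, 41.0 in replicate 1 and 28.3 in replicate 2, at 223 bp upstream. The deadenylase gene ccf-1 had 51.1 pooled, 16.7 in replicate 1 and 29.2 in replicate 2. In the turnover group xrn-2, whose product degrades mature miRNAs, reached 66.1 pooled, 22.9 in replicate 1 and 43.7 in replicate 2, at 56 bp upstream. Both cgh-1 and xrn-2 lay just under the weakest thresholded signal. hrpk-1, an RNA-binding regulator of miRNA activity, followed with 60.9 pooled, 27.8 in replicate 1 and 33.4 in replicate 2. Among the 5 classical targets, lin-14 (49.6) and hbl-1 (28.7, rank 10060) had a pooled summit, and lin-41, cog-1 and let-60 had none. The lin-14 and hbl-1 summits were matched in replicate 2 only, with 21.5 and 20.3.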

How the data were processed

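The deposited ce11 peak lists in narrowPeak format were used, 1 for each replicate, 1 pooled and 1 thresholded. Peak signal is the authors' value with no stated scale, and the −log10 q value is as the authors deposited it. Per the file descriptions, the thresholded list was set by a test of reproducibility between replicates. Aligner and peak caller: not given in the sources used here. Depth per sample is unknown, and the ce10 lists were not used.

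Genes came from Ensembl release 115 and symbols, mature miRNAs (458 arms of 260 genes) and bases from RefSeq, all on assembly WBcel235, which ce11 names. Calculations used Python 3.11.15, numpy 2.4.6, pandas 2.3.3, scipy 1.17.1 and matplotlib 3.10.9. Summits within 100 bp counted as matched between lists. Windows and counts were tested on simulated summits. Shares have exact Clopper-Pearson 95% intervals, which cover counting only. No significance test was made, since there is 1 group.

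The members and lists were chosen with earlier results of these data known. The genes named are all miRNA genes with a thresholded summit, the 20 with the strongest pooled summit, lin-4, let-7, lsy-6, mir-1 and mir-71, the listed families, and pathway genes by role; the genes named at other points were chosen after their values were seen. The pathway gene ntl-1 is annotated as let-711. The mir-58 family was counted by bases 2 to 7. Windows, peak cutoffs, replicates and motif distances were varied.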

Additional observations from a re-analysis of the deposited data

How the results depend on the processing

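The number of miRNA genes with a thresholded summit was 6 and became 12 with a window of 2000 bp upstream to 500 bp downstream (10 away from small RNA genes), 2 among the thresholded peaks above that list's median signal and 20 among pooled peaks with q up to 0.05, a cutoff chosen after seeing the data; away from small RNA genes it was also 2 and 20. Leaving out a replicate gave 4 to 7. The 73 genes with a pooled summit became 46 with a window of 500 bp upstream to 100 bp downstream, 42 above the pooled list's median signal, and 65 to 77 when a replicate was left out. The 54 genes with a summit in both replicates became 27 with the narrow window, 90 with the wide one and 30 when the summits had to lie within 100 bp. For pathway genes with a thresholded summit, the count of 1 became 0 with the narrow window, 2 with the wide one and 2 when the peak interval replaced the summit, and was 1 to 2 without a replicate. The count of 1 thresholded miRNA summit with CACGTG became 0 above the list's median signal and 2 within 250 bp, and was 0 to 1 without a replicate. Wider windows and longer lists can only add genes. The other 24 alternatives stayed within 1.5 times the main count. No paired analysis was possible because both samples belong to 1 group. Depth is unknown, so the absence of a summit limits no level of binding, and 2 replicates give no test.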

Other observations

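Thresholded summits beyond the window were present within 2000 bp upstream or 500 bp downstream of 5 miRNA genes that had none inside it, besides mir-71 in the report. These genes were chosen after their values were seen. mir-34, a miRNA of the stress response, had one 1783 bp upstream, with a signal of 92.9 pooled, 44.6 in replicate 1 and 56.4 in replicate 2. Like the summit near mir-71, it had a CACGTG within 100 bp and lay more than 250 bp from any small RNA gene. mir-45 had one 429 bp past its start, of 81.3 pooled, 40.5 in replicate 1 and 37.6 in replicate 2. mir-237 had one 1497 bp upstream (73.2) and mir-235 had 2, at 1067 and 1880 bp upstream (84.9 and 110.5), all within 250 bp of a small RNA gene. The fifth, F09A5.15, was reached by the summit of the mir-54 to mir-56 cluster at 531 bp past its start.

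The pooled share also differed by how many mature arms RefSeq annotates. It was 32.3% of the 198 miRNA genes with 2 mature arms and 14.5% of the 62 with 1 arm, a split chosen with the values in view and not tested.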
